A study of Solanum virginianum with 24 samples.

Results

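RIN, TAGL1, TDR4 and TDR6 are MADS-box genes and NOR and NAC1 are NAC genes, named here for their tomato counterparts, several of which control fruit ripening. They were taken as every probe set whose symbol in the platform annotation was one of these 6 names. Each symbol had 1 probe set, so the group held 6 of the 10101 probe sets tested, of which 909 carried any symbol. Their Entrez gene IDs in that annotation are 543708 for RIN, 543841 for TAGL1, 544191 for TDR4, 544255 for TDR6, 778200 for NOR and 543917 for NAC1. The assignments are those of the annotation and could not be checked against probe sequences here.

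The samples were fruit of eggplant (Solanum melongena in the series title, Solanum virginianum in the sample records), cultivar PPL, from plants in a glasshouse whose flowers were pollinated by hand. Age is counted in days post anthesis (dpa), and fruit of 5, 10, 20 and 50 dpa was set against that of the day of anthesis, 0 dpa, with 3 arrays at each age, labelled as biological replicates. Each later stage was normalised together with the same 3 arrays of 0 dpa, so that 15 arrays gave 4 sets of 6 columns. The RNA was read on a tomato GeneChip, whose probes can match an eggplant transcript in part.

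In tomato, RIN and NOR stand near the top of the ripening programme, and fruit of the rin and nor mutants does not ripen normally. MADS-box proteins bind DNA as complexes of several family members, and RIN has been found in complexes with TAGL1 and with the FRUITFULL-type protein encoded by TDR4. NAC proteins form a plant-specific family of transcription factors that act in development, senescence and stress. Eggplant is generally classed as a non-climacteric fruit, which ripens without the burst of ethylene seen in tomato.

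Values below are log2 units relative to the mean of the 3 arrays of 0 dpa in the same set, since the deposited values had been centred for each probe set and no signal level is left in them. Levels of different genes can therefore not be compared, nor can the presence of fruit transcripts be checked against defining markers. A value after ± is a standard error unless it is called an SD. Tests were made with limma, p was adjusted by Benjamini-Hochberg over all 10101 probe sets, and the threshold was 0.05.

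At 50 dpa, the latest stage, RIN, NOR, TDR6 and NAC1 all rose above 0 dpa, RIN the furthest at 2.51-fold. TAGL1, NAC1 and TDR6 were below 0 dpa in the first 10 days, and NOR was the single member called above 0 dpa at 20 dpa in limma. The 3 arrays of TDR6 at 20 dpa also lay above those of 0 dpa, but TDR6 did not pass. TDR4 did not pass the test at any stage. Of the 6 members, 3 fell at 5 dpa and 3 at 10 dpa, where 16.4% and 19.4% of all probe sets fell. None rose at these stages in limma (also 0 in the methods' t-test and before adjustment, at p under 0.05), beside 15.6% and 15.9% of all probe sets. At 20 dpa 1 rose and 1 fell, beside 17.8% and 20.1% of all probe sets. The rises there were 2 before adjustment and 0 in the methods' t-test, with 1 fall in both. At 50 dpa 4 rose and none fell (0 falls also in the methods' t-test and before adjustment), beside 20.6% and 19.5%. The 3 later arrays did not overlap the 3 arrays of 0 dpa for 3, 3, 3 and 4 of the 6 members at 5, 10, 20 and 50 dpa, beside 46.8%, 46.7%, 49.4% and 50.8% of all probe sets. The median log2 fold change of the members was -0.22 at 5 dpa, -0.25 at 10 dpa, 0.04 at 20 dpa and 0.70 at 50 dpa, against medians of -0.008, -0.025, -0.022 and 0.021 over all probe sets. The 4 comparisons share the same arrays of 0 dpa.

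**Figure D1:**
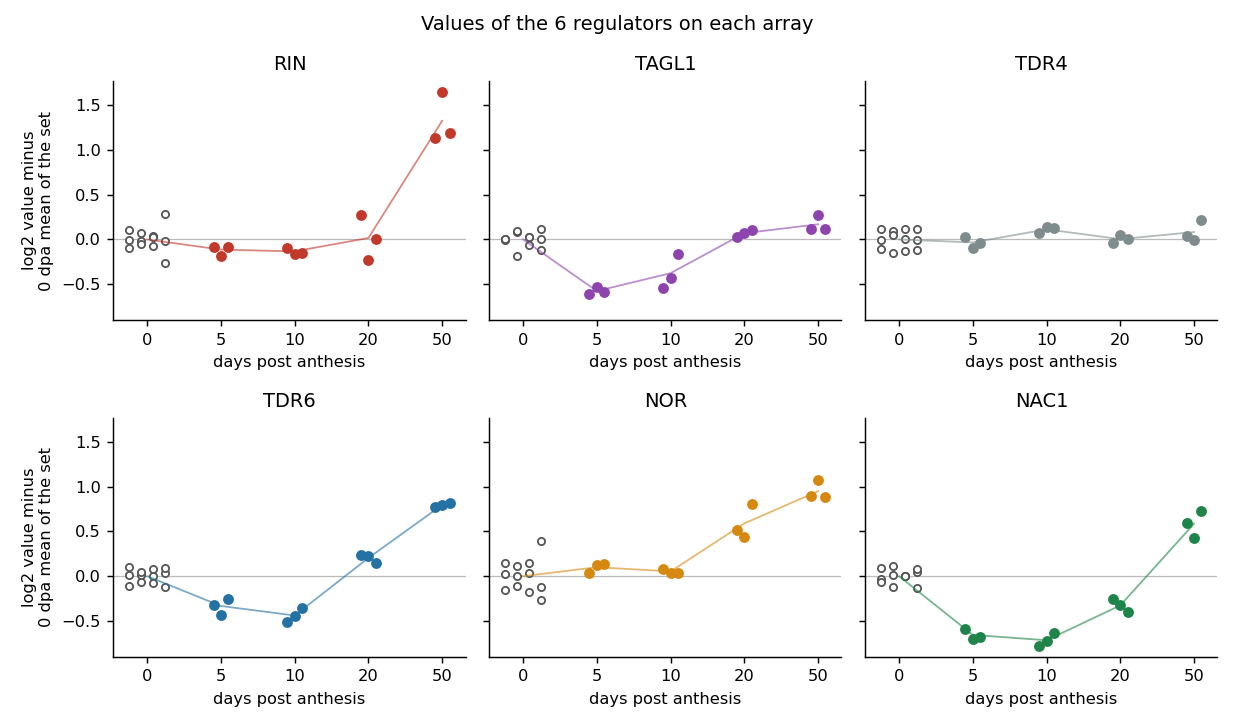
Log2 value of each member on each array, minus the mean of the 0 dpa arrays in its set (vertical axis), by days post anthesis (horizontal axis, evenly spaced stages, not to scale in time). Filled points are arrays of the later stages, open points are the 3 arrays of 0 dpa in each of the 4 sets, and lines join stage means. RIN stays near 0 up to 20 dpa and lies between 1.14 and 1.65 at 50 dpa, while NAC1 lies between -0.78 and -0.59 at 5 and 10 dpa and between 0.43 and 0.73 at 50 dpa.

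RIN encodes a SEPALLATA-type MADS-box protein that acts in tomato ripening. At 5 dpa its 3 arrays read -0.08, -0.18 and -0.08, against -0.01, 0.11 and -0.10 on the arrays of 0 dpa. At 10 dpa they read -0.09, -0.16 and -0.15, against -0.02, 0.07 and -0.05 at 0 dpa. The groups overlapped at 5 dpa, while at 10 dpa all 3 arrays lay just below those of 0 dpa. The log2 fold changes of RIN at these stages, -0.11 ± 0.089 and -0.13 ± 0.077, did not pass (adjusted p = 0.366 and 0.221), with 95% confidence intervals from -0.32 to 0.09 and from -0.31 to 0.04.

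At 20 dpa RIN read 0.27, -0.23 and 0.01, against 0.04, 0.03 and -0.07 at 0 dpa. The groups overlapped, with 1 array of 20 dpa above and 1 below all 3 arrays of 0 dpa. The fold change was 0.01 ± 0.12 (adjusted p = 0.941, 95% interval -0.27 to 0.30).

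At 50 dpa RIN read 1.14, 1.65 and 1.19, against -0.26, 0.29 and -0.02 at 0 dpa. Every array of 50 dpa lay above every array of 0 dpa by more than the spread within either group, which was 1.33 ± 0.28 at 50 dpa and 0 ± 0.28 at 0 dpa (mean ± SD, n = 3 each). RIN rose 2.51-fold (log2 1.33 ± 0.18, adjusted p = 0.000522, 95% interval 0.92 to 1.73), and 5.03% of all probe sets had a larger change in either direction at this stage. Between stages, RIN at 50 dpa exceeded 20 dpa by 1.31 ± 0.14 (adjusted p = 7.55e-06). In order of level, 10, 5, 0 and 20 dpa did not differ from their neighbours, while 20 and 50 dpa did (adjusted p = 0.934, 0.366, 0.941 and 7.55e-06 along that order).

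NOR encodes a NAC protein that acts in tomato ripening, and fruit of the nor mutant does not ripen normally. At 5 dpa its arrays read 0.03, 0.13 and 0.14, against 0.02, -0.16 and 0.15 at 0 dpa, and at 10 dpa 0.08, 0.04 and 0.04, against 0, -0.11 and 0.11. The groups overlapped at both stages, and the fold changes of NOR were 0.10 ± 0.099 and 0.06 ± 0.084 (adjusted p = 0.487 and 0.66).

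At 20 dpa NOR read 0.52, 0.44 and 0.81, against 0.03, -0.18 and 0.15 at 0 dpa. All 3 arrays of 20 dpa were above those of 0 dpa, and NOR rose 1.51-fold (log2 0.59 ± 0.12, adjusted p = 0.00575). Under the methods' t-test this call was lost (adjusted p = 0.0545, range over the 13 alternatives 0.000415 to 0.0545).

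At 50 dpa NOR read 0.90, 1.07 and 0.88, against -0.12, -0.27 and 0.39 at 0 dpa. The groups again did not overlap, although 1 array of 0 dpa stood well above the other 2, and NOR rose 1.93-fold (log2 0.95 ± 0.16, adjusted p = 0.00219, 95% interval 0.57 to 1.33). In its order of levels, 0, 10 and 5 dpa did not differ from their neighbours (adjusted p = 0.66 and 0.799). At 20 dpa it exceeded 5 dpa by 0.49 ± 0.099 (adjusted p = 0.00165), and at 50 dpa it exceeded 20 dpa by 0.36 ± 0.099 (adjusted p = 0.0127). The later of these steps did not pass without 20 dpa replicate 2 (0.28, adjusted p = 0.0619) or without 50 dpa replicate 2 (0.30, adjusted p = 0.0564), with a range over the 10 alternatives of 0.00182 to 0.0619.

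The change of NOR at 20 dpa was set against that of RIN by taking NOR minus RIN on each array. That difference was 0.58 higher at 20 dpa than at 0 dpa in log2 units, with an exact two-sided permutation p of 0.1, the smallest that this test allows with 3 against 3 arrays, so it cannot reach the threshold. At 50 dpa the change of NOR was below that of RIN by 0.38 (a difference of -0.38), with an exact permutation p of 0.3. All 15 pairs of members at 4 stages gave 60 such differences, of which 38 reached 0.1. These share genes and arrays, and the share of other pairs of probe sets that reach it was not computed. The count is therefore no result about the members.

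**Figure D2:**
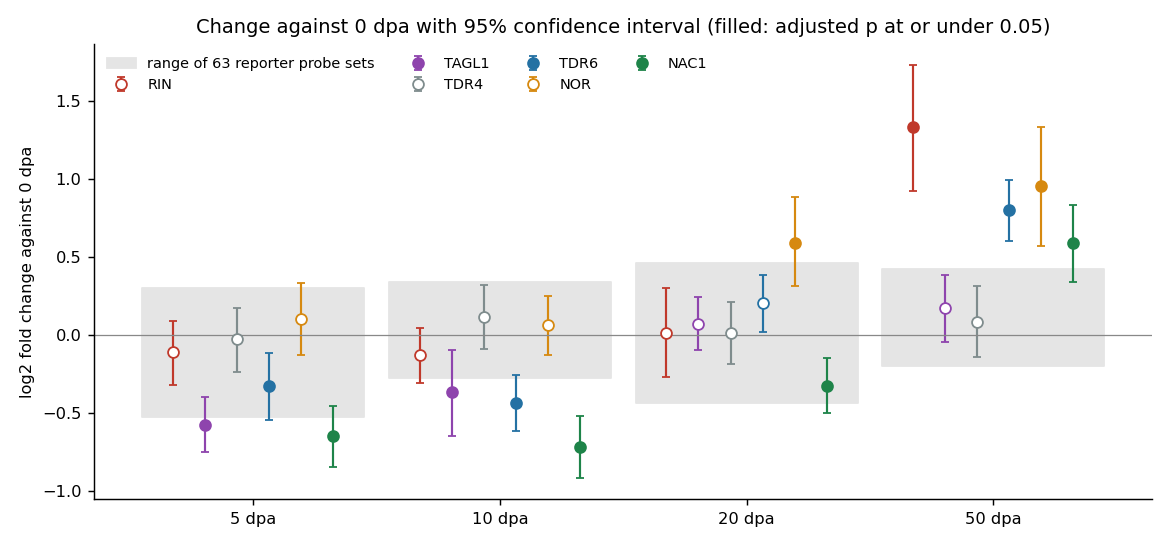
Log2 fold change against 0 dpa (vertical axis) of the 6 members at each stage, with 95% confidence intervals from limma; filled points passed an adjusted p of 0.05. Grey boxes span the fold changes of 63 probe sets for reporter genes that are not genes of the plant, which reached from -0.20 to 0.42 at 50 dpa, where RIN, TDR6, NOR and NAC1 lie above the box.

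TAGL1, an AGAMOUS-like MADS-box gene that in tomato acts in both fruit expansion and ripening, had its lowest mean at 5 dpa. Its arrays read -0.61, -0.53 and -0.59, against -0.01, 0.01 and 0 on the arrays of 0 dpa. The groups were far apart relative to their spread, and TAGL1 fell 1.49-fold (log2 -0.58 ± 0.076, adjusted p = 0.000793). At 10 dpa it read -0.54, -0.43 and -0.16, against -0.18, 0.08 and 0.10 at 0 dpa.

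Here the groups overlapped, since replicate 3 of 10 dpa stood just above replicate 1 of 0 dpa. The fall of TAGL1 at 10 dpa was small (log2 -0.37 ± 0.12, adjusted p = 0.041). It did not pass without 10 dpa replicates 1 or 2 (adjusted p = 0.133 and 0.107), without 0 dpa replicates 2 or 3 (0.118 and 0.124), in the methods' t-test (0.151) or with arrays centred on their median (0.0521), with a range over alternatives of 0.00492 to 0.151.

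At 20 dpa TAGL1 read 0.03, 0.07 and 0.11, against -0.06, 0.03 and 0.03 at 0 dpa. At 50 dpa it read 0.12, 0.27 and 0.12, against -0.12, 0.12 and 0. The groups overlapped at both stages, and the fold changes did not pass, at 0.07 ± 0.076 and 0.17 ± 0.094 (adjusted p = 0.516 and 0.198, 95% intervals -0.10 to 0.24 and -0.05 to 0.38). The single step between consecutive stages that passed for TAGL1 was that at 20 dpa against 10 dpa (0.44 ± 0.097, adjusted p = 0.00317).

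TDR4 encodes a FRUITFULL-type MADS-box protein whose tomato transcript accumulates during ripening. Over the 4 later stages its 12 arrays lay between -0.09 and 0.22, against -0.15 to 0.12 on the arrays of 0 dpa. The groups overlapped at every stage, and the fold changes were -0.03 ± 0.090, 0.11 ± 0.089, 0.01 ± 0.088 and 0.08 ± 0.099 at 5, 10, 20 and 50 dpa (adjusted p = 0.804, 0.376, 0.968 and 0.549). At 50 dpa the 95% interval of TDR4 ran from -0.14 to 0.31. Between its lowest and highest stage TDR4 moved by 0.15, and 96.8% of all probe sets moved further (median 0.51). Its fold changes lay inside the range of the reporter probe sets at all 4 stages, and whether the probe set detects the eggplant transcript cannot be told from centred values.

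TDR6 is a tomato MADS-box gene whose part in ripening is less well described. At 5 dpa it read -0.32, -0.43 and -0.25, against 0.10, -0.11 and 0.01 at 0 dpa. At 10 dpa it read -0.51, -0.45 and -0.36, against -0.06, 0.01 and 0.05. In both comparisons every later array was below every array of 0 dpa, and TDR6 fell by 1.26-fold (log2 -0.33 ± 0.092, adjusted p = 0.0249) and 1.36-fold (log2 -0.44 ± 0.079, adjusted p = 0.00269).

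The fall of TDR6 at 5 dpa lay inside the range of the reporter probe sets (-0.53 to 0.30). It did not pass without 0 dpa replicates 1 or 3 (adjusted p = 0.0901 and 0.0692), without 5 dpa replicates 1 or 2 (0.0516 and 0.0628) or in the methods' t-test (0.0596), with a range over alternatives of 0.00184 to 0.0901.

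At 20 dpa TDR6 read 0.24, 0.22 and 0.15, against 0.08, 0 and -0.08 at 0 dpa. The groups did not overlap, but the change was small and did not pass (0.20 ± 0.080, adjusted p = 0.0792). At 50 dpa TDR6 read 0.77, 0.80 and 0.82, against 0.03, 0.09 and -0.12, and the groups did not overlap. TDR6 rose 1.74-fold (log2 0.80 ± 0.084, adjusted p = 0.000148). The steps at 20 dpa against 10 dpa (0.64 ± 0.077, adjusted p = 3e-05) and at 50 dpa against 20 dpa (0.59 ± 0.077, adjusted p = 4.88e-05) both passed.

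NAC1, a NAC gene of tomato first described for its protein's interaction with a geminivirus replication enhancer, passed at all 4 stages, as did 10.5% of all probe sets. At 5 dpa it read -0.59, -0.70 and -0.68, against -0.03, 0.09 and -0.06 at 0 dpa. At 10 dpa it read -0.78, -0.73 and -0.64, against -0.12, 0.11 and 0.01. NAC1 fell 1.57-fold at 5 dpa (log2 -0.65 ± 0.084, adjusted p = 0.000692) and 1.65-fold at 10 dpa (log2 -0.72 ± 0.089, adjusted p = 0.000303).

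At 20 dpa NAC1 read -0.26, -0.32 and -0.40, against 0, 0 and 0 at 0 dpa when rounded to 2 decimals. It was still lower than at 0 dpa (log2 -0.33 ± 0.075, adjusted p = 0.00928), a fold change inside the range of the reporter probe sets at that stage (-0.44 to 0.46). At 50 dpa NAC1 read 0.60, 0.43 and 0.73, against -0.13, 0.05 and 0.08, and lay above all 3 arrays of 0 dpa. NAC1 rose 1.50-fold (log2 0.59 ± 0.11, adjusted p = 0.0027). Its order of levels ran 10, 5, 20, 0 and 50 dpa, and all neighbours but 10 and 5 dpa differed (adjusted p = 0.652, 0.0117, 0.00928 and 0.0027 along that order). All 4 calls of NAC1 against 0 dpa were kept under each of the 13 alternatives.

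**Figure D3:**
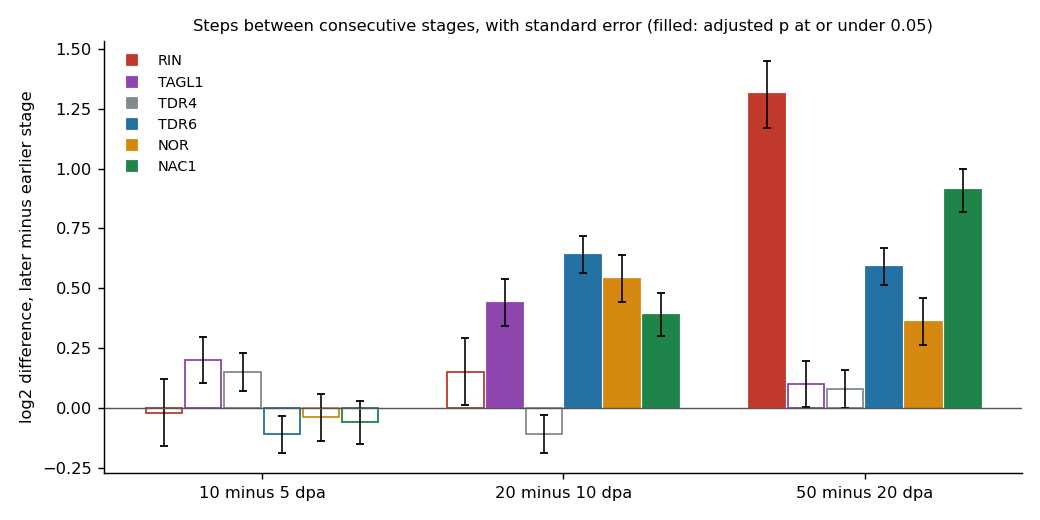
Log2 difference between consecutive stages, later minus earlier (vertical axis), for each member in the order of the legend, with standard errors; filled bars passed an adjusted p of 0.05. The bars of 10 minus 5 dpa are all open, and the bar of RIN at 50 minus 20 dpa reaches 1.31.

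Consecutive stages were compared to place the changes in time, after subtracting from each array the mean of the 0 dpa arrays in its own set. This sets values across sets that were normalised separately, and the error of the 0 dpa mean is not in these standard errors. For 10 dpa against 5 dpa none of the 6 members passed in limma (also 0 at an unadjusted p under 0.05), while 22.5% of all probe sets did. For 20 dpa against 10 dpa TDR6, NOR, TAGL1 and NAC1 rose, the last by 0.39 ± 0.090 (adjusted p = 0.00406), where 17% of all probe sets rose. For 50 dpa against 20 dpa RIN, NAC1, TDR6 and NOR rose, beside 19.3% of all probe sets. The step of NAC1 was 0.91 ± 0.090 (adjusted p = 3.52e-06), with values of 0.59 ± 0.15 at 50 dpa and -0.33 ± 0.067 at 20 dpa (mean ± SD, n = 3 each). RIN at 20 dpa exceeded 10 dpa by 0.15 ± 0.14 and did not pass (adjusted p = 0.456).

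The arrays of 0 dpa show how far a member's value depends on the set in which the same array was normalised. RIN ranged over 0.11 to 0.21 log2 units in the sets with 5, 10 and 20 dpa but over 0.55 in the set with 50 dpa. NOR ranged over 0.23 to 0.67, again widest with 50 dpa, while TDR4 ranged over 0.23 to 0.25 in all 4 sets. NAC1 spanned 0 in the set with 20 dpa, when rounded to 2 decimals, and 0.23 in another. The rises of RIN and NOR at 50 dpa were thus measured against the widest spread their 0 dpa arrays had. The fall of TAGL1 at 5 dpa was measured against the narrowest its 0 dpa arrays had, 0.03, where the widest was 0.29.

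**Figure D4:**
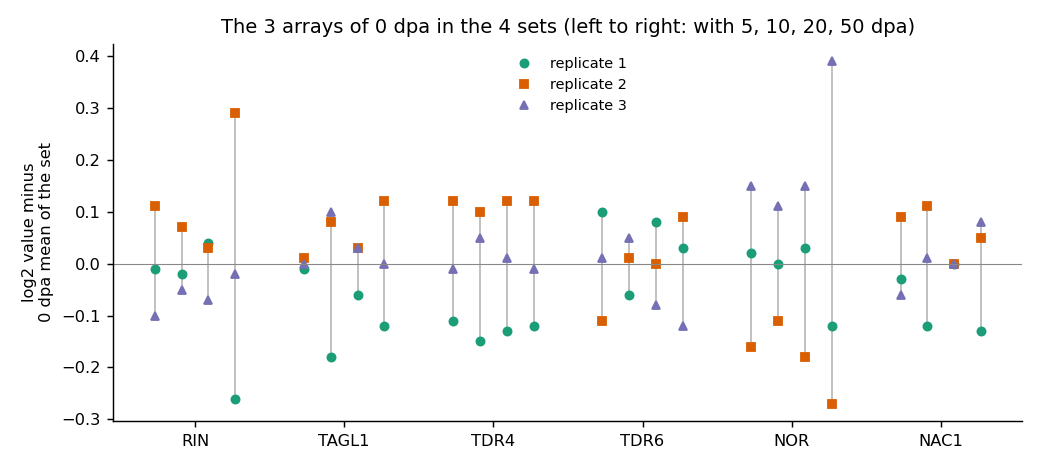
The same 3 arrays of 0 dpa as log2 values relative to their own mean (vertical axis), for each member in the 4 sets, drawn left to right as normalised with 5, 10, 20 and 50 dpa; grey lines span the 3 arrays. RIN and NOR spread over 0.55 and 0.67 in the set with 50 dpa, and TDR4 keeps a spread of 0.23 to 0.25.

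The array's 63 probe sets for reporter genes, which an eggplant should lack, give a scale for these changes. Their median absolute log2 fold change was 0.09 to 0.11 per stage, against 0.19 to 0.23 over all probe sets, and 4 to 6 of them passed at each stage. Of those that passed, 1 was higher and 3 lower at 5 dpa, 4 and 2 at 10 dpa, and 1 and 3 at 20 dpa. At 50 dpa, where 4 members rose, 5 were higher and 0 lower. The median log2 fold change of the reporters was 0.07 at 50 dpa and -0.03 to 0.01 at the earlier stages. For the actin control, the log2 ratio of the 5' to the 3' probe set exceeded that of 0 dpa at every later stage, by 1.09 ± 0.061 at 5 dpa and by 0.366 to 0.521 afterwards. That of GAPDH did too, by 0.77, 0.692, 0.954 and 0.315 at 5, 10, 20 and 50 dpa. The 42 probe sets of spike-in controls were at a median of 0.892 at 5 dpa and of -0.259 to -0.138 afterwards, and the 25S ribosomal RNA control was at -0.71 at 5 dpa, -1.81 at 10 dpa, 0.01 at 20 dpa and 1.04 at 50 dpa. These values moved with the stages, and their part in the members' changes was not tested. On 5 dpa replicate 2, 50 probe sets and no member lay over 1 log2 unit below both other arrays, against 0 to 3 probe sets on any other array of a later stage. Without it TAGL1 and NAC1 were still called at 5 dpa and TDR6 was not.

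Whole fruit can hold seed and remnants of the flower. None of the 4 pollen and anther markers measured (PRK1, PRK2 and PRK3, pollen receptor kinase genes, and LIN7, an anther invertase gene) passed in limma at any stage (0 also in the methods' t-test and before adjustment), with log2 fold changes between -0.20 and 0.35. Centred values cannot tell whether these probe sets detect the eggplant transcripts, so an unchanged and an undetected transcript look alike here too. The single seed marker measured, MAN2, an endo-beta-mannanase gene, rose at 5 dpa (0.71, adjusted p = 0.0492), 10 dpa (1.91) and 20 dpa (3.81 ± 0.26) and was at 0.03 ± 0.20 at 50 dpa. Its call at 5 dpa was lost under 6 of 13 alternatives, among them leaving out 0 dpa replicate 2 or 3 (adjusted p = 0.123 and 0.163) and 5 dpa replicate 1 or 2 (0.134 and 0.115), and its call at 10 dpa was lost in the methods' t-test (0.0613). MAN2 thus stood high at 20 dpa, where NOR was first called above 0 dpa, and its part in that result was not tested. A single gene, back at 0.03 at 50 dpa, does not measure the amount of seed. In bulk fruit, fewer cells of a type and less RNA per cell cannot be told apart.

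Of 5 genes listed as markers of fruit flesh, fsm1, a gene of early fruit in tomato, was below 0 dpa at every stage (-3.18 to -1.97). TPRP-F1, a proline-rich protein gene of young fruit, was above it at 5, 10 and 20 dpa (0.33, 0.93 and 0.94) and at -2.61 ± 0.11 at 50 dpa, where 2A11, a fruit-specific gene of tomato, was at 0.64 ± 0.15 (adjusted p = 0.00854, and 0.0672 in the methods' t-test). The call of TPRP-F1 at 5 dpa was lost without any 1 array of 0 dpa (adjusted p = 0.0638 to 0.0898), without 5 dpa replicate 2 or 3 (0.0734 and 0.093) and in the methods' t-test (0.0733). E8 rose at 10 dpa (0.34 ± 0.10, adjusted p = 0.0287), a call lost without 0 dpa replicate 1 or 2 (0.0503 and 0.0976), without 10 dpa replicate 2 (0.0988), with the replicate block (0.0636), in the methods' t-test (0.0929) and in one fit of 15 arrays (0.057). PG2 did not pass at any stage, and whether its probe set detects the eggplant transcript cannot be told from centred values.

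The list of other MADS-box genes held AGL11, an ovule-identity type gene, MADS1, which in tomato restrains ripening, and TDR8. None of the 3 passed at 5 or 10 dpa in limma (0 also in the methods' t-test and before adjustment). MADS1 fell at 20 dpa (log2 -0.23 ± 0.072, adjusted p = 0.0372) and rose at 50 dpa (0.32 ± 0.089, adjusted p = 0.0222), and it exceeded 20 dpa by 0.54 ± 0.068 at 50 dpa (adjusted p = 3.6e-05). The call of MADS1 at 20 dpa was lost under 7 of 13 alternatives, namely without any 1 of the 6 arrays (adjusted p = 0.0742 to 0.0901) and with the replicate block (0.071). Its call at 50 dpa was lost without 0 dpa replicate 1 or 2 (0.0792 and 0.0738) and without 50 dpa replicate 2 or 3 (0.0568 and 0.0549). AGL11 and TDR8 lay between -0.20 and 0.13 at all stages. The list's median was 0 at 50 dpa, against 0.70 for the 6 members and 0.021 for all probe sets. The list does not cover the whole family. It missed the MADS-box gene AG1, which was lower than 0 dpa at every stage (-1.09 at 50 dpa) and is given under other observations.

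Other ripening regulators on the array, 9 probe sets for 8 genes, gave no rise against 0 dpa at any stage in limma (0 also in the methods' t-test and before adjustment). Over all probe sets 15.6%, 15.9%, 17.8% and 20.6% rose at 5, 10, 20 and 50 dpa. Of the 9, 4 fell at 5 dpa, 4 at 10 dpa, 3 at 20 dpa and 3 at 50 dpa, with medians of -0.27, -0.20, -0.16 and -0.19. The shares of all probe sets that fell were 16.4%, 19.4%, 20.1% and 19.5%. Among the EIN3-like genes, which carry the ethylene signal to transcription, EIL1 was below 0 dpa at every stage. It stood at -1.29 ± 0.12, -1.25 ± 0.096, -0.96 ± 0.088 and -0.94 ± 0.095 (log2) at 5, 10, 20 and 50 dpa (adjusted p = 0.000172, 1.7e-05, 6.45e-05 and 0.000122). Between 20 and 50 dpa it did not differ (0.02, adjusted p = 0.902). EIL3 was lower at 5, 10 and 20 dpa (-1.11, -1.25 and -0.84), calls lost in the methods' t-test (adjusted p = 0.0805, 0.0789 and 0.105). EIL4 was lower at 10 dpa (-1.59 ± 0.089) and still lower than 0 dpa at 50 dpa (-0.41 ± 0.082, adjusted p = 0.00456). EIL4 at 50 dpa exceeded 20 dpa by 0.42 ± 0.089 (adjusted p = 0.00231), as did EIL3 by 0.65 ± 0.19 (adjusted p = 0.0173). The step of EIL3 did not pass without 20 dpa replicate 1 or 3 (adjusted p = 0.0805 and 0.0653) or without 50 dpa replicate 2 (0.0681). ERF2, an ethylene response factor gene, fell at 50 dpa (-0.41 ± 0.10, adjusted p = 0.0127, and 0.0511 in the methods' t-test).

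Of 18 probe sets for 16 genes of ethylene synthesis and reception, 3 were higher and 5 lower than 0 dpa at 50 dpa, beside 20.6% and 19.5% of all probe sets, with a median of -0.16. ACO5, an ACC oxidase gene, was at 4.79 ± 0.17 (adjusted p = 4.08e-07), and ETR2, an ethylene receptor gene, at 0.52 ± 0.10 (adjusted p = 0.00369). The third was ACS7, an ACC synthase gene, named after its values were seen, at 0.25 ± 0.076 (adjusted p = 0.0339). The call of ACS7 was lost under 7 of 13 alternatives, among them leaving out any array of 0 dpa (adjusted p = 0.0667 to 0.0922) and 50 dpa replicate 2 or 3 (0.0853 and 0.1). ACO4 (-1.91 ± 0.088) and the 3 probe sets of ACO6 (-1.50, -1.20 and -0.90) were lower, the last not without 0 dpa replicate 3 (-0.69, adjusted p = 0.0552) and not in the methods' t-test (0.11). Earlier, 9 of the 18 fell at 5 dpa, 9 at 10 dpa and 10 at 20 dpa, beside 16.4%, 19.4% and 20.1% of all probe sets. Each of these stages held 1 rise, that of ACO5, beside 15.6%, 15.9% and 17.8% of all probe sets. The rise of ACO5 at 5 dpa (0.83, adjusted p = 0.00379) was lost in the methods' t-test (0.0546). ACO5 at 20 dpa was at 6.36 ± 0.12, while RIN at that stage was at 0.01 ± 0.12.

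**Figure D5:**
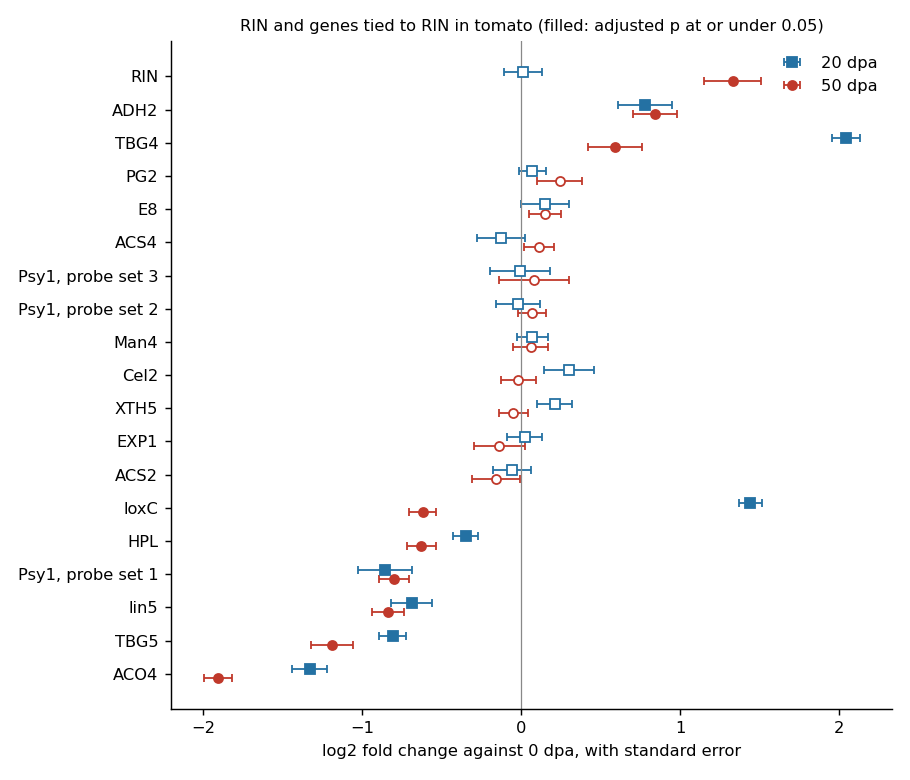
Log2 fold change against 0 dpa (horizontal axis) with standard errors for RIN and the 18 probe sets tied to RIN in tomato, at 20 dpa (squares) and 50 dpa (circles); filled symbols passed an adjusted p of 0.05. At 50 dpa ADH2 (0.84) and TBG4 (0.59) were the 2 probe sets of the list called higher than 0 dpa, TBG4 not in the methods' t-test, and RIN was at 1.33.

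Genes reported in tomato as bound by RIN, or as losing their ripening expression in rin fruit, were listed from general knowledge of tomato, and the place of lin5 and TBG5 on that list is the least certain. At 5, 10 and 20 dpa 0, 3 and 3 of the 18 probe sets (16 genes) were higher than 0 dpa and 5, 4 and 5 lower. Over all probe sets 15.6%, 15.9% and 17.8% were higher at these stages and 16.4%, 19.4% and 20.1% lower. The 0 at 5 dpa stayed 0 in the methods' t-test and before adjustment. At 50 dpa 2 of the 18 were higher than 0 dpa and 6 lower, beside 20.6% and 19.5% of all probe sets, with a median of -0.04. ADH2, an alcohol dehydrogenase gene of fruit aroma, rose by 0.84 ± 0.14 (adjusted p = 0.00159), and TBG4, a beta-galactosidase gene of fruit softening, by 0.59 ± 0.17 (adjusted p = 0.0225). The call of TBG4 was lost without 0 dpa replicate 1 or 2 (0.56 and 0.55, adjusted p = 0.0695 and 0.07) and in the methods' t-test (0.116). ACO4 was the furthest below 0 dpa (-1.91 ± 0.088), followed by TBG5 (-1.19 ± 0.13, adjusted p = 0.000188), lin5 (-0.84 ± 0.10), Psy1, phytoene synthase (-0.80 ± 0.096 in 1 of its 3 probe sets, the other 2 at 0.07 and 0.08), HPL, hydroperoxide lyase (-0.63 ± 0.091), and loxC, a lipoxygenase gene of fruit volatiles (-0.62 ± 0.084).

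Several genes that mark ripening in tomato did not pass at 50 dpa. ACS2 and ACS4, ACC synthase genes, were at -0.16 ± 0.15 and 0.11 ± 0.093. PG2, a polygalacturonase gene, was at 0.24 ± 0.14 (adjusted p = 0.204), and E8, an ethylene-responsive fruit gene, at 0.15 ± 0.10 (adjusted p = 0.291). EXP1, an expansin gene, was at -0.14 ± 0.16 and Cel2, an endoglucanase gene, at -0.02 ± 0.11. All these fold changes lay inside the range of the reporter probe sets at 50 dpa (-0.20 to 0.42). Whether these probe sets detect the eggplant transcripts cannot be told from centred values, so an unchanged and an undetected transcript look alike. The step at 50 dpa against 20 dpa, in which RIN rose by 1.31, held 0 rises and 5 falls among the 18 probe sets (0 and 7 at an unadjusted p under 0.05), beside 19.3% and 15.5% of all probe sets. Of the 5 falls, that of TBG5 (-0.38) was lost under 5 of 10 alternatives, without 20 dpa replicate 1 or 2 (adjusted p = 0.0793 and 0.0544), without 50 dpa replicate 1 or 3 (0.0941 and 0.091) and in the fit of only the 6 arrays (0.0589). That of HPL (-0.28) was lost without 20 dpa replicate 3 (0.0504) and without 50 dpa replicate 2 (0.0711). There loxC fell by 2.07 (log2 -2.07 ± 0.081, adjusted p = 4.35e-10), TBG4 by 1.45 (log2 -1.45 ± 0.14) and ACO4 by 0.58 (log2 -0.58 ± 0.10). TBG4 and loxC had their highest means at 20 dpa, at 2.04 ± 0.088 and 1.44 ± 0.072, where RIN was at 0.01 ± 0.12.

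The symbols closest in pattern to RIN were taken by Pearson's r across the 12 arrays of the later stages, after subtracting the mean of the 0 dpa arrays in each set. This was applied to members with a called change of at least 1 log2 unit against 0 dpa, which held for RIN alone. Among 903 other probe sets with a symbol, XET2, a xyloglucan endotransglycosylase gene, and TomloxE, a lipoxygenase gene, both had r = 0.966, and LOC543864 had r = 0.962. These r values describe arrays of 4 stages that share their 0 dpa arrays and are set largely by the 3 arrays of 50 dpa. At 50 dpa XET2 stood at 4.28, TomloxE at 3.06 and LOC543864 at 1.16, against -0.85 to 0.11, -0.25 to -0.09 and 0 to 0.06 at the earlier stages.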

How the data were processed

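The values analysed were the authors' log2 values, deposited as 24 columns. Per the series' design text they were made with RMA in GeneSpring GX 11.5, and each later stage was normalised together with the 3 arrays of 0 dpa, per the labels. In each set of 6 columns the median of every probe set was within 5e-07 of 0, so the values were centred per probe set, a step the sources used here do not describe. Column medians lay between -0.0137 and 0.0116. Positive was taken as higher expression, and neither this direction nor the signal level was checked, since no scanner files were used.

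Of 10209 probe sets, 108 controls were set aside and 10101 tested. Symbols came from the platform annotation. Each stage was fitted against the 0 dpa arrays of its set with limma 3.58.1 in R 4.3.3 (lmFit and eBayes, two-sided, Benjamini-Hochberg, threshold 0.05). Pairs of later stages were fitted over 12 arrays. The methods' t-test is the plain t-test on the same values. Comparisons of 20 with 5 dpa and of 50 with 5 and 10 dpa were added to place neighbours in the order of levels. Scripts were tested on simulated data. The number of arrays limits the precision, and p values measure only the spread between these arrays. Plots were drawn with matplotlib 3.10.9.

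Members and lists were chosen with earlier results of these data known. All members were named, and the rule for others was the 3 called genes of largest change per list and stage. Not every gene under that rule was named at each stage. Left out, among others, were ACO6 at 5 dpa (log2 -1.62), the receptor gene ETR5 at 10 dpa (-1.63) and loxC at 10 dpa (1.25). Genes given beyond that rule, such as PG2, E8, ACS2, ACS7, ERF2 and the fruit flesh markers, were named with their values seen. Replicate numbers were not used to pair the arrays in the main fits. Between each stage and its 0 dpa arrays, deviations from group means correlated at -0.017 to 0.102 for same-numbered arrays. For arrays of different number they correlated at -0.11 to 0.051. With 3 arrays per group these values cannot exclude a pairing. No genome or sequence table was used here.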

Additional observations from a re-analysis of the deposited data

Results flagged for a closer look

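The change of a member against 0 dpa differed between consecutive stages in 8 cases, by limma's test on values relative to the 0 dpa mean of each set. The sets were normalised separately, and the error of the 0 dpa means is not in these p values. At 20 dpa it exceeded that at 10 dpa by 0.44 for TAGL1 (adjusted p = 0.00317), 0.64 for TDR6 (3e-05), 0.54 for NOR (0.000964) and 0.39 for NAC1 (0.00406), in log2 units. At 50 dpa it exceeded that at 20 dpa by 1.31 for RIN (adjusted p = 7.55e-06), 0.59 for TDR6 (4.88e-05), 0.36 for NOR (0.0127) and 0.91 for NAC1 (3.52e-06). The call of NOR in this step was lost under 2 of 10 alternatives. Groups of 3 arrays are too small for a test of single outlying arrays.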

How the results depend on the processing

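Of 492 alternative values for the 42 comparisons of single members, 477 kept their side of the threshold (471 with the same sign and 6 uncalled values with the other), 14 were no longer past it, 1 newly passed and 0 reversed a call. The newly passing value was TDR6 at 20 dpa in one fit of 15 arrays (0.20, adjusted p = 0.0359, range over alternatives 0.0359 to 0.188). RIN at 50 dpa kept its call under all 13 alternatives (1.17 to 1.47, adjusted p = 6.81e-07 to 0.0199). In the methods' t-test 2113 probe sets passed at 5 dpa, against 3230 in limma, and 1 member at 20 dpa, against 2. Both tests take the same differences of means, and limma alone shares the estimate of the variance across probe sets. With the replicate block 3073, 3403, 3725 and 3831 probe sets passed at 5, 10, 20 and 50 dpa, and no call of a member changed. Leaving out the reporter probe sets, added after seeing the data, gave 3231, 3563, 3830 and 4041. With arrays centred on their median the call of TAGL1 at 10 dpa was lost (-0.36, adjusted p = 0.0521). For the other named genes and list members, 54 probe sets, 4428 alternative values held 126 lost calls, 39 new calls and 0 reversed calls. A filter on dim probes could not be run on values without a signal level.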

Other observations

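AG1, an AGAMOUS-type MADS-box gene that was not on the lists and was named after its values were seen, was lower than 0 dpa at every stage, at -0.85 ± 0.081, -1.08 ± 0.13, -0.96 ± 0.18 and -1.09 ± 0.12 at 5, 10, 20 and 50 dpa (log2, adjusted p = 0.000156, 0.000219, 0.00323 and 0.00022 in limma, and 0.0538 in the methods' t-test at 20 dpa).

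Across the 12 arrays of the later stages, which share the arrays of 0 dpa, TDR6 had Pearson's r of 0.965 with NAC1 and 0.949 with NOR, TDR6 being a MADS-box gene and the other 2 NAC genes, and RIN had 0.925 with NAC1. TDR4 had r of 0.026 to 0.277 with the other 5. These are descriptions over 4 stages, and how often other probe sets reach such r with these members was not computed.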
